A study of Mus musculus with 36 samples.

Results

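The genes described here are 31 genes of cartilage and bone other than collagens: 4 transcription factors of cartilage, 12 genes of cartilage matrix, 3 growth plate signals and receptors, 4 transcription factors of osteoblasts and 8 genes of mineralizing matrix. They were listed by name, for their known role in chondrocytes and osteoblasts, but with earlier results of these data known. Of the 55487 genes in the count table, 15489 had enough counts to be tested, and 22 of the 31 were among them. The 9 others were Matn1, Chad, Snorc, Cnmd, Ucma, Ihh, Dlx6, Bglap and Mepe, which are given by their counts.

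The study asked what is left of the response to a glucocorticoid when the glucocorticoid receptor (GR) is mutated where it dimerizes, in its DNA-binding domain, its ligand-binding domain or both. The paper reports that receptors with the mutation in the ligand-binding domain also bind ligand less well. RNA was sequenced from 36 libraries of primary mouse embryonic fibroblasts (MEFs), cultured from mid-gestation embryos of heterozygous intercrosses after the head and organs had been removed. All cultures were grown in medium with serum and were treated for 5 h with solvent (vehicle) or with 1 µM dexamethasone (Dex), a synthetic glucocorticoid. Each combination of genotype, treatment and run had 3 libraries, and the methods give a different mouse for each of the 3 primary cultures of a genotype. The runs are the 2 parts in which the paper says the experiment was done. It reports identical processing and the same sequencing machine for both.

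The genotypes were GRwt/wt, with unchanged GR, GRD/D, with a point mutation in the DNA-binding domain (GRdim), GRL/L, with a point mutation in the ligand-binding domain, GRD+L/D+L, with both mutations on the same allele, and GRko/ko, a GR knockout. Run 1 held 24 libraries: GRwt/wt replicates 1 to 3, GRD/D, GRD+L/D+L and GRko/ko. Run 2 held 12 libraries: GRwt/wt replicates 4 to 6 and GRL/L. The L and D+L alleles were made by CRISPR in zygotes that carried the D allele and were backcrossed to FVB/NJ. The labels give FVB/NJ for every library, whereas the methods give another inbred strain for the mice behind the knockout allele, so that genotype, strain origin and culture cannot be told apart in GRko/ko. GRL/L, GRD+L/D+L and GRko/ko mice die around birth, which limits these genotypes to embryonic cells. GRwt/wt was the only genotype in both runs, and since its cultures in the 2 runs carry different numbers, run and culture cannot be told apart.

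Cartilage forms when mesenchymal cells condense and switch on Sox9, which with Sox5 and Sox6 drives the genes of the cartilage matrix, such as the proteoglycan aggrecan. Osteoblasts arise from related mesenchymal progenitors through Runx2 and Sp7. They lay down a matrix that mineralizes with the help of the alkaline phosphatase Alpl and holds acidic phosphoproteins such as Ibsp, Dmp1 and Spp1. Glucocorticoids act on both lineages, and long exposure is known for slower growth of the growth plate and loss of bone. Cultures of MEFs are mixed, and cells of either lineage can be carried over from the embryo's trunk and limbs.

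Totals were 15280166 to 19102035 counts per library in run 1 and 21532686 to 28662608 in run 2. Levels are given as counts per 1000000 counts (CPM) after TMM scaling. A gene passed when its adjusted p was at most 0.05 in edgeR (quasi-likelihood F test, Benjamini-Hochberg adjustment over all genes tested), and log2 fold changes are given with an approximate standard error (SE). Nr3c1, the gene of GR, was at 15.9 to 20.4 CPM in the 6 GRko/ko libraries and at 47.8 to 105 CPM in the 30 others, with no overlap. The 10 fibroblast genes summed to 31800 CPM or more in every library, against at most 134 CPM for the 14 chondrocyte genes. The 2 sums are unlike, since the fibroblast list holds Col1a1, Col1a2 and Col3a1 and the chondrocyte list no collagen. A separate list of 7 cartilage collagens reached at most 996 CPM. In these bulk libraries fewer cells of a type and less RNA per cell cannot be told apart. The p-values measure the spread between these libraries.

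Promoter sequences were looked at for 4 genes with wide differences between libraries and for Runx2. The windows of the RefSeq table (GRCm38.p6, which is mm10; 250 bases before the start to 50 after it) held 36 promoters of 23 of the 31 genes. Sox9, Snorc, Comp, Mgp, Trps1, Sp7, Dlx5 and Dlx6 were not matched. Searched on both strands were the glucocorticoid half-site AGAACA, read as TGTTCT from the other strand, the RUNX site ACCACA, read as TGTGGT, and the SOX site ACAATG, read as CATTGT. The 7 windows below are the 250 bases before the start on the strand of the gene, with every match in capitals. Ibsp at chr5:104299037-104299286 (plus strand) holds a SOX site, the first of the Dmp1 promoters, at chr5:104197325-104197574 (plus strand), a SOX site and a glucocorticoid half-site, and the other, at chr5:104202367-104202616 (plus strand), a RUNX site. Sox5 at chr6:143947107-143947356 (minus strand) holds a SOX site and a half-site. The first of the Alpl promoters, at chr4:137766476-137766725 (minus strand), holds a half-site, and the other, at chr4:137796385-137796634 (minus strand), holds none of the 3 motifs. Runx2 at chr17:44814628-44814877 (minus strand) holds a RUNX site.
Ibsp: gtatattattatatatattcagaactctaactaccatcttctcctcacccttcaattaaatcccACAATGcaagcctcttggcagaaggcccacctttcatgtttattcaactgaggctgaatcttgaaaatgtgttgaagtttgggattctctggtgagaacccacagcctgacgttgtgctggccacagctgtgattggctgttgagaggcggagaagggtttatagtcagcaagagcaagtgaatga
Dmp1, first promoter: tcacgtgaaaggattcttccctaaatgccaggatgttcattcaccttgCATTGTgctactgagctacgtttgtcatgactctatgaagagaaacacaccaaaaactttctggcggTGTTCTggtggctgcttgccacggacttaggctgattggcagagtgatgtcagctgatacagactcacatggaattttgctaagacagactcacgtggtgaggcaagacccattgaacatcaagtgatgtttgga
Dmp1, other promoter: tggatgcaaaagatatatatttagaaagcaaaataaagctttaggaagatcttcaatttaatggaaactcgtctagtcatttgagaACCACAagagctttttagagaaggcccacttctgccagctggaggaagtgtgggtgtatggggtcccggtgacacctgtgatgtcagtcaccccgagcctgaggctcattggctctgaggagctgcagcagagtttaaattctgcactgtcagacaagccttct
Alpl, first promoter: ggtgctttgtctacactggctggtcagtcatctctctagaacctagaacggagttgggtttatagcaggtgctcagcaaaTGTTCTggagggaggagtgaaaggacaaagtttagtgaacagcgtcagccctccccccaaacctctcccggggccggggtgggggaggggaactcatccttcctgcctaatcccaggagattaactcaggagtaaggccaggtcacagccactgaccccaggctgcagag
Alpl, other promoter: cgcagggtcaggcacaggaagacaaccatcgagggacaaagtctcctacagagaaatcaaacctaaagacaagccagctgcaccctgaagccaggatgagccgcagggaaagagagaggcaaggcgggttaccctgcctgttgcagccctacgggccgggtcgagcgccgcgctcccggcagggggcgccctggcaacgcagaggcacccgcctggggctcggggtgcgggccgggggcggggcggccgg
Sox5: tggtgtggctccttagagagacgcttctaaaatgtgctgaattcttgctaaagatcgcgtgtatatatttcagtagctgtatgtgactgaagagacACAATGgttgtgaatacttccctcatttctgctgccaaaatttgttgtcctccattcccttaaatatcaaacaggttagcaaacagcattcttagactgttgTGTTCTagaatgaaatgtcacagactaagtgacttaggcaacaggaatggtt
Runx2: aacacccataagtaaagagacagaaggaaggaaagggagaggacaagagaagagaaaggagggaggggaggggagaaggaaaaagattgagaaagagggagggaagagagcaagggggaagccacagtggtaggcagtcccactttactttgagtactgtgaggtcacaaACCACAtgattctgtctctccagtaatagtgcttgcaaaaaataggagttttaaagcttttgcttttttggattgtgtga

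Counted over the full windows, the half-site was in 10 of the 36 promoters, which belong to 10 genes (Alpl, Bglap, Cnmd, Dmp1, Ibsp, Pth1r, Sox5, Sox6, Sparc and Ucma), and in 19% of all 32851 promoters. The RUNX site was in 12 of the 36 and in 16.8% of all promoters, and the SOX site was in 7 of the 36 and in 12.6%. A half-site facing its reverse complement across 3 bases was in none of the 36 and in 3 promoters of all (0.00913%). Each motif holds the letters ACA, so that a SOX site can overlap a half-site or a RUNX site. A match describes letters in a window and was not tested for binding.

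Per kilobase of exon, the mean levels over all libraries ran from 1134 CPM per kb for Sparc, a collagen-binding matrix protein, to 0.00108 CPM per kb for Mepe, a phosphoprotein of osteocytes. Spp1 (osteopontin) stood at 988 CPM per kb and Mgp (matrix Gla protein, an inhibitor of calcification) at 330 CPM per kb. These 3 genes, which are also expressed outside cartilage and bone, were far above the rest. Sox9 followed at 5.36 CPM per kb, Runx2 at 4.24 and Comp at 2.99, and Acan, the gene of aggrecan, was at 0.559 CPM per kb. Bglap (osteocalcin) had 7 counts in all libraries together, which is uncertain because near-identical copies of the gene can share reads, and Mepe had 1 count. Ihh, the hedgehog ligand of the growth plate, had 41 counts in all, and Dlx6 had 53.

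The 2 runs of GRwt/wt differed widely in these genes. In vehicle, 18 of the 22 genes were higher in run 2 and 1 was lower, against 40.2% of all genes tested higher and 32.2% lower. By at least 2-fold, 15 of the 22 passed, against 22.8% of all genes. The median log2 fold change was 2.11 over the 22 genes and 0.0902 over all genes. With Dex libraries included, all 6 run 2 libraries stood above all 6 run 1 libraries for 16 of the 22, against 30.5% of all genes, and below them for 1, Spp1, against 24.3%.

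**Figure D1:**
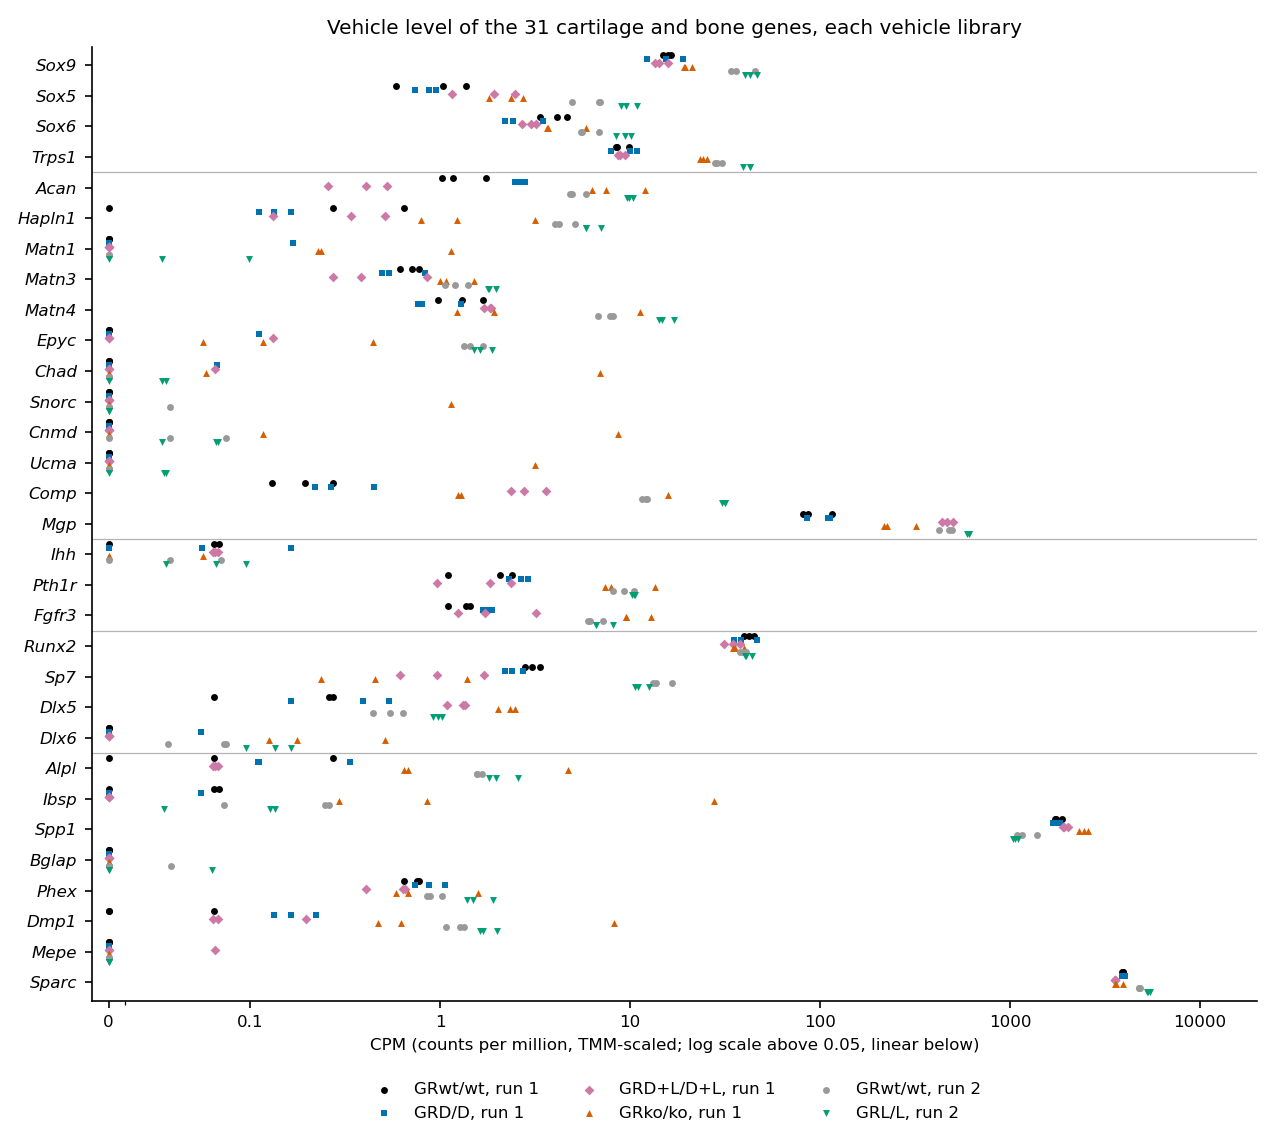
Level of each of the 31 genes in every vehicle library, in TMM-scaled CPM on an axis that is logarithmic above a linear stretch near 0, with 1 point per library and a colour for each genotype and run. The run 2 points of GRwt/wt lie above those of run 1 for most genes, and for Ibsp 1 GRko/ko library, replicate 3, stands at 27.6 CPM.

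All 4 transcription factors of cartilage were higher in run 2. Sox9, the master factor of chondrocytes, was at 14.9, 15.9 and 16.5 CPM in the GRwt/wt vehicle libraries of run 1 and at 36.2, 33.9 and 45.5 CPM in those of run 2. Sox5, its partner, was at 1.04, 1.37 and 0.584 CPM in run 1 and at 6.95, 6.89 and 4.94 CPM in run 2. The groups did not overlap for either gene. The log2 difference was 1.29 for Sox9 (SE 0.113, adjusted p = 1.48e-12) and 2.65 for Sox5 (SE 0.226, adjusted p = 8.32e-13). Trps1, a repressor of the GATA type that times the maturation of chondrocytes, was 1.70 higher on the log2 scale (SE 0.0985, adjusted p = 1.76e-17). Sox6, the other partner, was 0.57 higher (SE 0.171, adjusted p = 0.00354).

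The 7 genes of cartilage matrix that could be tested were all higher in run 2 as well. Comp, a pentameric matrix protein of cartilage and tendon, was at 0.195, 0.274 and 0.13 CPM in run 1 and at 12.3, 12.1 and 11.6 CPM in run 2, a log2 difference of 5.87 (SE 0.721, adjusted p = 5.32e-09). Hapln1, the link protein that ties aggrecan to hyaluronan, was at 0.649, 0.274 and 0 CPM in run 1 and at 4.23, 5.14 and 4.05 CPM in run 2, with a log2 difference of 3.83 (SE 0.429, adjusted p = 6.59e-10). Epyc, a small proteoglycan of cartilage, had no count in any of the 6 GRwt/wt libraries of run 1. It had 123 counts over the 3 run 2 vehicle libraries against 0 over the 3 of run 1, at least 22.5-fold higher with a floor of 3 counts over the group. Epyc reached the level asked for by the expression filter (0.578 CPM) in the 12 run 2 libraries alone, so that it had to differ between the runs once tested, and its place in the counts above is no support for them. Hapln1 reached that level in the 12 run 2 libraries, in 6 of GRko/ko and in 1 other, so that its place gives little support. Such floors and the intervals on counts cover counting error only. Acan, at 1.17, 1.03 and 1.75 CPM in run 1 and 4.83, 4.92 and 5.87 CPM in run 2, differed by 1.97 (SE 0.292, adjusted p = 2.38e-07), Matn4 (a matrilin) by 2.52 (SE 0.420, adjusted p = 2.07e-06) and Mgp by 2.30 (SE 0.133, adjusted p = 1.66e-17). Matn3, another matrilin, differed by 0.79 (adjusted p = 0.0144) and did not pass without GRwt/wt vehicle replicate 2 or replicate 6 (adjusted p up to 0.0572).

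The 2 receptors, Pth1r for parathyroid hormone and its related peptide and Fgfr3 for fibroblast growth factors, were each 2.31 higher on the log2 scale in run 2 (SE 0.227 and 0.241, adjusted p = 2.89e-11 and 1.27e-10). Among the factors of osteoblasts, Sp7 (osterix) was at 2.79, 3.36 and 3.05 CPM in run 1 and at 13.2, 13.7 and 16.6 CPM in run 2, a difference of 2.24 (SE 0.181, adjusted p = 2.09e-13). Runx2 did not pass, at 42.2, 39.8 and 44.7 CPM against 39.1, 37.9 and 41 CPM (log2 difference -0.10, adjusted p = 0.217). Sp7 and Runx2, which act in sequence in the osteoblast lineage, thus had different values between the same libraries. Dlx5, a homeobox factor, was 1.43 higher (adjusted p = 0.0107), a difference that did not pass without GRwt/wt vehicle replicate 3 (adjusted p = 0.0881).

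In the mineralizing group, Alpl was at 0, 0.274 and 0.0649 CPM in run 1 and at 1.66, 1.57 and 1.56 CPM in run 2 (log2 difference 3.78, SE 0.727, adjusted p = 1.99e-05). Dmp1 had 102 counts over the 3 vehicle libraries of run 2 and 1 count in run 1, a ratio of 56 with a counting interval of 9.83 to 2230 (adjusted p = 0.000369). Alpl reached the filter's 0.578 CPM in 12 run 2 and 4 GRko/ko libraries, Dmp1 in 7 and 5, and both in 0 others. The place of these 2 genes in the counts of genes higher in run 2 is thus no support for those counts. Spp1 was the gene that was lower, at 1886, 1752 and 1735 CPM in run 1 and 1090, 1157 and 1387 CPM in run 2 (log2 difference -0.56, SE 0.076, adjusted p = 3.78e-08). Sparc was higher by 0.295 (SE 0.0394, adjusted p = 3.16e-08), from 3926, 3948 and 3879 CPM to 4850, 4765 and 4805 CPM. Ibsp (16 counts against 2, a ratio of 4.39 with a counting interval of 1.03 to 39.4, adjusted p = 0.528) and Phex (adjusted p = 0.3) did not pass.

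Some markers of other cell types moved with the run. The 7 genes of skeletal muscle, 4 of them tested, summed to 17.7 to 30.8 CPM in the run 2 libraries and to 483 to 804 CPM in the 18 run 1 libraries that were not GRko/ko, with Acta1, an actin, at 3.82 to 8.1 CPM and 458 to 756 CPM. Of these 7 genes, Acta1 and Des were lower in every run 2 library, whereas Myog (0 to 0.446 CPM against 0 to 0.0685 CPM), Ttn (0 to 0.418 CPM against 0 to 0.123 CPM) and Myh3 (0.297 to 2.36 CPM against 0 to 0.408 CPM) overlapped between the runs. The 4 genes of tendon summed to 217 to 242 CPM in run 2 and 55.8 to 110 CPM in those of run 1. Of these 4, Fmod (163 to 188 CPM against 37.1 to 99.4 CPM) and Tnmd (36.1 to 43.4 CPM against 3.18 to 8.66 CPM) were higher in every run 2 library. Scx (3.65 to 11.5 CPM against 1.58 to 9.34 CPM) and Mkx (5.04 to 10.2 CPM against 2.34 to 8.14 CPM) overlapped between the runs. The 14 chondrocyte genes, all but Sox9, Sox5 and Sox6 of which are matrix genes, summed to 76.2 to 87.1 CPM in GRwt/wt of run 2, to 107 to 134 CPM in GRL/L and to 18.2 to 29.1 CPM in the same 18 libraries of run 1. Of the 14, 8 were higher in every run 2 library and 0 were lower, while Matn1, Chad, Snorc, Cnmd and Ucma reached at most 0.724 CPM in run 2. For no list was the share of all genes taken against these 18 libraries. With GRko/ko included, all 12 run 2 libraries were above all 24 of run 1 for 6 of the 22 tested genes, against 16.8% of all genes. They were below for 1 of the 22, against 14.6%. The sums of 7 cartilage collagens overlapped, at 280 to 788 CPM in run 2 and 142 to 647 CPM in the 18, with 2 genes higher in every run 2 library and 1 lower. The 10 macrophage and osteoclast genes summed to 660 to 1220 CPM in run 2 and 121 to 854 CPM in run 1 without GRko/ko. Of these 10, 1 was higher in every run 2 library than in those of run 1, the osteoclast protease Ctsk (227 to 265 CPM against 89.7 to 128 CPM), and 0 were lower. No list had a gene at 0 in every library. Of the 10 fibroblast genes, 4 were higher and 3 lower in every run 2 library than in the 18 of run 1, such as Pdgfra (320 to 435 CPM against 15.6 to 74.5 CPM) and Fn1 (5200 to 9050 CPM against 11900 to 20900 CPM). The 6 epithelial genes summed to 2.78 to 49.1 CPM in GRwt/wt of run 2, 0.857 to 3.04 CPM in GRL/L and 2.4 to 5.38 CPM in the 18. In run 2 Krt14 reached 25 CPM and Krt5 20.6 CPM, while Krt18 was lower in every run 2 library. The 11 osteoblast and osteocyte genes, dominated by Spp1, summed to 814 to 1450 CPM in run 2 and 1510 to 2050 CPM in the 18. Of these 11, 2 were higher and 1 lower in every run 2 library. The part of any of these cell types in the run difference was not tested.

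The vehicle level of each mutant genotype was then set against GRwt/wt with the run as a term. These comparisons share the GRwt/wt libraries. In GRD/D, 1 of the 22 genes was higher (background 7.27%) and 1 was lower (5.37%), and 1 passed at 2-fold or more (2.54%). Acan was at 2.61, 2.47 and 2.79 CPM, above the 3 GRwt/wt libraries of run 1 at 1.17, 1.03 and 1.75 CPM, and was 1.01 higher on the log2 scale (SE 0.309, adjusted p = 0.025). Sox6 was at 2.41, 2.2 and 3.46 CPM against 3.37, 4.11 and 4.67 CPM, 0.61 lower (SE 0.191, adjusted p = 0.029), with GRD/D replicate 3 overlapping GRwt/wt. Within run 1 alone neither passed, at 0.99 for Acan (adjusted p = 0.0713) and -0.58 for Sox6 (adjusted p = 0.0766). Acan did not pass either without GRD/D vehicle replicate 1, 2 or 3 or GRwt/wt vehicle replicate 2 (adjusted p up to 0.0627), nor Sox6 without GRD/D vehicle replicate 1 or 2 or GRwt/wt vehicle replicate 3 (adjusted p up to 0.206), while Runx2 passed without GRD/D vehicle replicate 3 (adjusted p = 0.0216).

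In GRL/L, 10 of the 22 genes were higher than in GRwt/wt and none was lower, against 7.56% of all genes higher and 4.99% lower, and 2 passed at 2-fold or more (background 1.32%). The median log2 fold change was 0.47 over the 22 genes and 0.00582 over all genes. The 10 were 3 cartilage factors (Trps1, Sox5 and Sox6), 4 matrix genes (Acan, Comp, Matn3 and Matn4), Dlx5, Phex, an endopeptidase of bone that limits a phosphate-wasting hormone, and Sparc. Trps1 was at 39.4, 42.8 and 43 CPM in GRL/L and at 30.6, 28.2 and 28.9 CPM in GRwt/wt of the same run (log2 difference 0.56, SE 0.0791, adjusted p = 3.15e-06). Acan was at 9.87, 10.4 and 9.7 CPM against 4.83, 4.92 and 5.87 CPM (0.93, SE 0.177, adjusted p = 0.000284). Comp was at 31.7, 31.7 and 30.4 CPM against 12.3, 12.1 and 11.6 CPM (1.39, SE 0.270, adjusted p = 0.000384). In all 3 genes each GRL/L library was above each GRwt/wt library of run 2. Matn4 reached 17, 14.2 and 14.7 CPM against 7.83, 8.17 and 6.8 CPM (log2 difference 1.02, SE 0.244, adjusted p = 0.00355).

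Sox5 was 0.68 higher and Sox6 0.65 higher in GRL/L (SE 0.134 and 0.128, adjusted p = 0.000487 each), and Phex was 0.91 higher (SE 0.220, adjusted p = 0.00406). Sox9, at 46.7, 42.9 and 40.4 CPM against 36.2, 33.9 and 45.5 CPM, overlapped GRwt/wt and did not pass. Runx2 and Sp7 did not pass either. By DESeq2 instead of edgeR, Comp (adjusted p = 0.0551), Matn4 (0.0718) and Matn3 (0.062) did not pass. Dlx5 and Matn3 did not pass within run 2 alone (adjusted p = 0.0686 and 0.0619). Dlx5 was lost without any 1 of GRL/L vehicle replicates 1 to 3 or GRwt/wt vehicle replicates 3, 5 and 6 (adjusted p up to 0.128), Matn3 without any 1 of GRL/L vehicle replicates 1 to 3 or GRwt/wt vehicle replicates 2, 4 and 5 (up to 0.139) and Sparc without GRL/L vehicle replicate 1 (0.0868). Mgp passed without GRwt/wt vehicle replicate 2 (0.0232) and Sox9 without GRwt/wt vehicle replicate 6 (0.0321).

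In GRD+L/D+L, 4 of the 22 genes were higher (background 15.4%) and 4 were lower (18%), and 5 passed at 2-fold or more (5.91%). The higher genes were Mgp, Dlx5, Comp and Sox5, and the lower ones were Sp7, Acan, Runx2 and Sparc. Mgp was at 500, 466 and 441 CPM against 86.8, 115 and 81 CPM in GRwt/wt of run 1, a log2 difference of 2.38 (SE 0.120, adjusted p = 1.51e-17). Dlx5 was at 1.31, 1.09 and 1.36 CPM against 0.26, 0.274 and 0.0649 CPM (2.535, SE 0.393, adjusted p = 3.4e-06). Comp was at 2.36, 2.75 and 3.61 CPM against 0.195, 0.274 and 0.13 CPM (3.54, SE 0.803, adjusted p = 0.000693). For these 3 genes the groups did not overlap.

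Sp7 was at 1.71, 0.959 and 0.612 CPM in GRD+L/D+L, below 2.79, 3.36 and 3.05 CPM in GRwt/wt of run 1 (log2 difference -1.69, SE 0.292, adjusted p = 1.98e-05). Runx2, which acts before Sp7, was at 31.1, 37.9 and 35 CPM against 42.2, 39.8 and 44.7 CPM, 0.34 lower on the log2 scale (SE 0.0782, adjusted p = 0.000812). Acan was at 0.525, 0.256 and 0.408 CPM against 1.17, 1.03 and 1.75 CPM (-1.70, SE 0.499, adjusted p = 0.00754). All 3 were lower in each GRD+L/D+L library than in each GRwt/wt library of the run. Acan was therefore lower in GRD+L/D+L, while Comp and Mgp, of the same matrix group, were higher. Without GRD+L/D+L vehicle replicate 2 Acan did not pass (adjusted p = 0.0501), Sparc did not without replicate 1 or 3 (up to 0.0539), and Sox5 did not without GRD+L/D+L vehicle replicate 1 or 2 or GRwt/wt vehicle replicate 1 or 3 (up to 0.284). Fgfr3 passed without GRD+L/D+L vehicle replicate 1 (0.0412), and Sox6 without GRwt/wt vehicle replicate 1, 5 or 6 (as low as 0.0273).

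In GRko/ko, 17 of the 22 genes were higher than in GRwt/wt and 2 were lower, against 25.8% of all genes higher and 22.6% lower, and 15 passed at 2-fold or more (14.6%). The median log2 fold change was 1.61 over the 22 genes and 0.0161 over all genes. It was 1.54 over the 22 with the 3 genes at no more than 3 counts in GRwt/wt vehicle of run 1 placed at their bound. In part these values rest on 1 library, GRko/ko vehicle replicate 3. Without it, 14 of the 22 were higher (background 22.3%) and 3 were lower (20.1%), 13 passed at 2-fold or more (14.0%), and the median was 1.31 over the 22 and 0.00682 over all genes. The heat map of log2 fold changes gives both versions side by side.

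**Figure D2:**
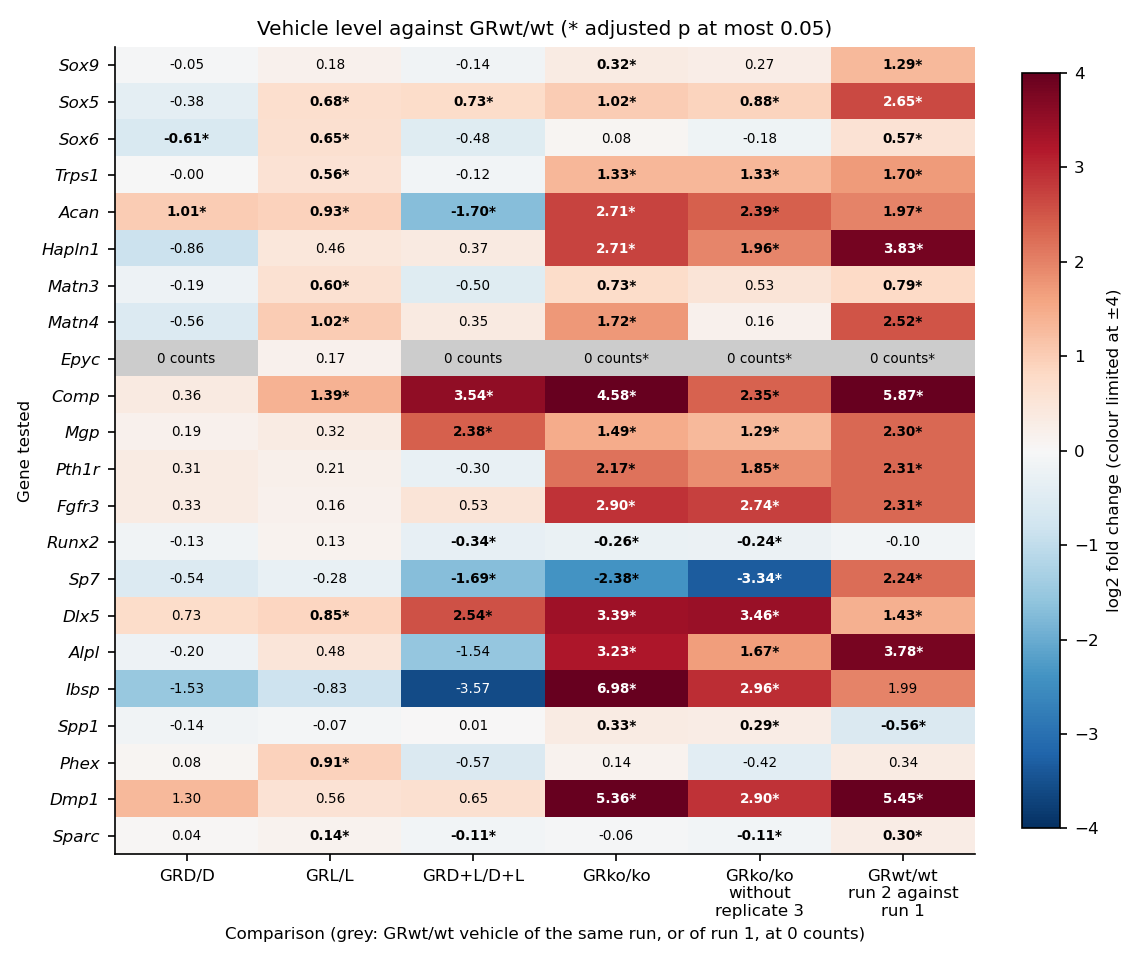
Heat map of log2 fold changes of the vehicle level for the 22 tested genes (rows) in GRD/D, GRL/L, GRD+L/D+L, GRko/ko and GRko/ko without replicate 3 against GRwt/wt, and in GRwt/wt of run 2 against run 1 (columns); red is higher, blue is lower, colour stops at 4, an asterisk marks adjusted p of at most 0.05 and grey marks a comparison group at 0 counts. Most cells of the GRko/ko and run columns are red, and leaving out replicate 3 lowers Ibsp from 6.98 to 2.96 and Comp from 4.58 to 2.35.

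For both receptors, Trps1, Dlx5, Mgp and Acan, each GRko/ko vehicle library was above each GRwt/wt vehicle library of run 1. Fgfr3 was at 9.53, 9.52 and 12.8 CPM against 1.1, 1.44 and 1.36 CPM in GRwt/wt of run 1, a log2 difference of 2.90 (SE 0.199, adjusted p = 5.22e-15), and of 2.74 without replicate 3. Trps1 was at 23.5, 25.6 and 24.3 CPM against 8.56, 8.43 and 9.93 CPM (1.33, SE 0.0986, adjusted p = 4.94e-14), with the same 1.33 without replicate 3. Dlx5 was at 2.47, 2.32 and 2.02 CPM against 0.26, 0.274 and 0.0649 CPM (3.39, SE 0.347, adjusted p = 2.01e-10), and 3.46 without replicate 3. The differences of Trps1 and Dlx5 were thus at least as large without replicate 3. Mgp was at 226, 217 and 321 CPM against 86.8, 115 and 81 CPM (1.49, SE 0.121, adjusted p = 5.33e-13) and Pth1r at 7.35, 7.94 and 13.5 CPM against 2.08, 1.1 and 2.4 CPM (2.17, SE 0.204, adjusted p = 2.57e-11), with 1.29 and 1.85 without replicate 3. Acan, at 7.47, 6.29 and 11.9 CPM against 1.17, 1.03 and 1.75 CPM, was 2.71 higher (SE 0.249, adjusted p = 1.46e-11), and 2.39 higher without replicate 3 (adjusted p = 6.16e-10).

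Sp7 and Runx2 were the genes that were lower in GRko/ko. Sp7 was at 0.235, 0.454 and 1.39 CPM against 2.79, 3.36 and 3.05 CPM, a log2 difference of -2.38 (SE 0.317, adjusted p = 7e-08) and of -3.34 without replicate 3 (adjusted p = 3.48e-09). Runx2 was at 34.7, 39.8 and 35.6 CPM against 42.2, 39.8 and 44.7 CPM, 0.26 lower on the log2 scale (SE 0.0768, adjusted p = 0.0053). The Sp7 groups did not overlap, while Runx2 in replicate 2 equalled the lowest GRwt/wt library to the digits given. Dlx5 was thus higher, and Sp7 and Runx2 lower, in both GRko/ko and GRD+L/D+L, 2 comparisons that share their GRwt/wt libraries. Spp1 was higher, at 2453, 2311 and 2581 CPM against 1886, 1752 and 1735 CPM (0.33, SE 0.0877, adjusted p = 0.00169).

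The mineralizing genes Ibsp, Dmp1 and Alpl and the matrix genes Comp, Matn4 and Hapln1 had their highest GRko/ko value in vehicle replicate 3. Ibsp was at 0.294, 0.85 and 27.6 CPM in the 3 GRko/ko vehicle libraries, and its log2 difference from GRwt/wt was 6.98 with all 3 and 2.96 without replicate 3. Ibsp reached the filter's 0.578 CPM in 3 libraries, all of them GRko/ko, so that it had to differ once tested, and its place in the GRko/ko counts is no support for them. In run 1, Alpl reached it in 4 GRko/ko libraries, Dmp1 in 5 and Hapln1 in 6, and in 0, 0 and 1 libraries of the other genotypes. The place of Alpl and Dmp1 in the GRko/ko counts is no support either, and that of Hapln1 gives little. Comp was at 1.29, 1.25 and 15.9 CPM, with differences of 4.58 (SE 0.670, adjusted p = 4.49e-07) and 2.35 (adjusted p = 5.36e-06). Alpl was at 0.647, 0.68 and 4.74 CPM, with differences of 3.235 (SE 0.546, adjusted p = 5.59e-06) and 1.67 (adjusted p = 0.00474). For Comp and Alpl the other 2 libraries were close to each other, and for Ibsp they had 5 and 15 counts, with replicate 3 far above them in all 3 genes. Dmp1, at 0.47, 0.624 and 8.22 CPM, differed by 5.36 (adjusted p = 2.51e-06) and 2.90 (adjusted p = 0.000185), with 1 count in the 3 GRwt/wt vehicle libraries of run 1. Hapln1 differed by 2.71 (SE 0.458, adjusted p = 5.68e-06) and by 1.96 without replicate 3 (adjusted p = 0.00149). Epyc had 10 counts over the 3 GRko/ko vehicle libraries against 0 in GRwt/wt of run 1, at least 3-fold higher (adjusted p = 0.00064, or 0.0219 without replicate 3).

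Matn4 was at 1.24, 1.93 and 11.2 CPM, 1.72 higher than GRwt/wt with all 3 libraries (SE 0.404, adjusted p = 0.000528), and did not pass without replicate 3 (0.16, adjusted p = 0.697). Matn3 (0.73 with all 3, adjusted p = 0.0241) and Sox9 (0.32, SE 0.113, adjusted p = 0.0192) were lost too without replicate 3, at 0.53 (adjusted p = 0.174) and 0.27 (adjusted p = 0.0948). Sparc passed as lower only then, at -0.11 (adjusted p = 0.0333). Matn3 was lost as well without GRwt/wt vehicle replicate 2, and Sox9 without GRwt/wt vehicle replicate 1. Sox5 was higher with and without replicate 3, at 1.02 (adjusted p = 0.000779) and 0.88 (adjusted p = 0.0109).

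Set against the other GRko/ko libraries, vehicle replicate 3 was the highest of all 36 libraries for 11 of the 31 genes. Of the 22 tested genes these were 6 (Acan, Pth1r, Fgfr3, Alpl, Ibsp and Dmp1), against 3.04% of all genes tested, and of the 9 untested ones 5 (Matn1, Chad, Snorc, Cnmd and Ucma). It was the highest of the 6 GRko/ko libraries for 20 of the 31, or 15 of the 22 tested, against 15.6% of all genes tested. For 10 of the 31 its level was more than 5-fold that of the other 2 GRko/ko vehicle libraries, 6 of them tested, against 0.271% of all genes tested. Ibsp had 437 counts there and 20 in the other 2 together, a 47.8-fold higher level with a counting interval of 30.6 to 79.1. Chad (chondroadherin, a leucine-rich protein that binds collagen) had 110 counts against 1, a ratio of 241 (42.3 to 9600), and Cnmd (chondromodulin, an inhibitor of vessel growth in cartilage) had 136 against 2, a ratio of 149 (40.4 to 1240). Ucma, a Gla protein of the growth plate, had 50 counts against 0, at least 36.5-fold higher, and Snorc, a cartilage proteoglycan, 18 against 0, at least 13.1-fold higher.

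**Figure D3:**
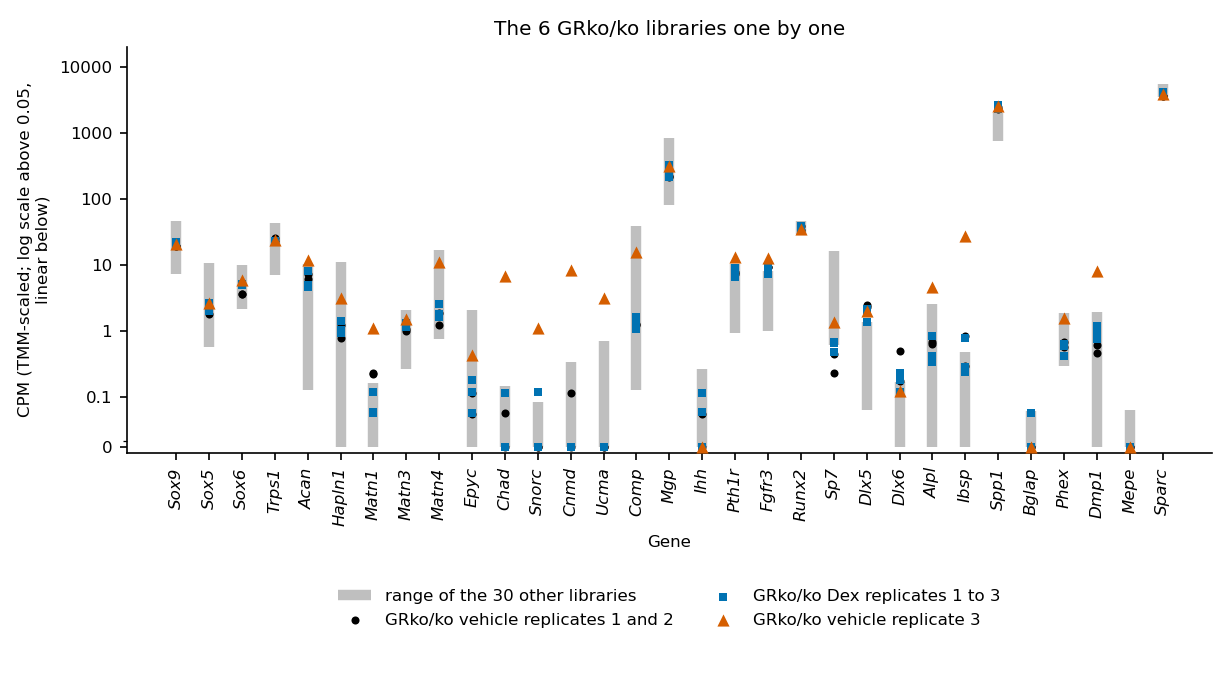
Level of each of the 31 genes in the 6 GRko/ko libraries, in TMM-scaled CPM on an axis that is logarithmic above a linear stretch near 0, with a separate mark for vehicle replicate 3 and grey bars for the range of the 30 other libraries. Vehicle replicate 3 lies apart from the other GRko/ko libraries for Ibsp at 27.6 CPM, Cnmd at 8.60 CPM and Chad at 6.95 CPM, and lies among them for Runx2, Trps1 and Dlx5.

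The other ratios in replicate 3 ran over a wide range. Dmp1 was 15-fold higher there (9.22 to 25.7), Comp 12.5-fold (9.08 to 17.7), Alpl 7.14-fold (4.42 to 11.9) and Matn4 7.09-fold (5.21 to 9.77). Epyc had 7 counts against 3, a ratio of 5.11 (1.17 to 30.6), and Matn1 a ratio of 4.93 (2.04 to 13.1). Sp7, which was below GRwt/wt in all 3 GRko/ko libraries, was 4.01-fold higher in replicate 3 than in the others (1.9 to 8.9). By contrast the ratio was 1.1 for Sox9, 0.992 for Trps1, 0.954 for Runx2, 1.08 for Spp1, 1.09 for Sparc and 0.844 for Dlx5. Sox9 and Runx2, the factors that start the cartilage and bone lineages, thus differed little from the other GRko/ko libraries. Bglap, Mepe and Ihh had 0 counts in this library.

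Of the summed markers, the 14 chondrocyte genes stood at 95.1 CPM in GRko/ko vehicle replicate 3 and at 36.5 to 44.9 CPM in the other 5 GRko/ko libraries, and 7 cartilage collagens that are not among the 31 genes at 996 CPM and 600 to 671 CPM. Col2a1, the main collagen of cartilage, was at 471 CPM against 147 to 214 CPM in the others, and Col9a1 at 29.3 CPM against 0.283 to 1.15 CPM. The 11 osteoblast and osteocyte genes, dominated by Spp1, stood at 2660 CPM against 2340 to 2700 CPM, and the 10 fibroblast genes at 47700 CPM against 48400 to 51200 CPM. The 10 macrophage and osteoclast genes summed to 2430 to 2880 CPM in the 6 GRko/ko libraries and to 121 to 854 CPM in the other 18 libraries of run 1, with Lyz2 alone at 1550 to 1920 CPM and 18.4 to 560 CPM. Of these 10 genes, 8 were higher in every GRko/ko library than in each of the 18, while Ctsk, a protease of osteoclasts, was lower (37.1 to 47.1 CPM against 89.7 to 128 CPM) and Acp5, another osteoclast enzyme, overlapped (2.12 to 3.73 CPM against 1.62 to 7.31 CPM). Csf1r, a defining receptor of macrophages, was at 317 to 349 CPM in GRko/ko and at 2.97 to 40.5 CPM in those 18. The 6 epithelial genes summed to 7.37 to 10.1 CPM in GRko/ko and 2.4 to 5.38 CPM in the 18, the 5 neural and Schwann cell genes to 31.6 to 39.5 CPM and 45.8 to 64.7 CPM, and the 7 muscle genes to 372 to 500 CPM and 483 to 804 CPM. Acta1, which made up most of the muscle sum, was lower in GRko/ko (307 to 427 CPM against 458 to 756 CPM), whereas Myh3 (2.04 to 3.34 CPM against 0 to 0.408 CPM), Myog (0.348 to 0.958 CPM against 0 to 0.0685 CPM) and Ttn (0.182 to 0.737 CPM against 0 to 0.123 CPM) were higher. No list had a gene at 0 in every library. The share of all genes apart between the 6 GRko/ko libraries and the 18 was not taken. The part of these cells in the GRko/ko levels was not tested.

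Dex was compared with vehicle within each genotype. In GRwt/wt, over both runs, 2 of the 22 genes rose (background 16.2%) and 6 fell (17.4%), none by 2-fold, and the median log2 fold change was -0.13 over the 22 and -0.00742 over all genes. Both directions together, the 8 genes were 36.4% of the 22, near the sum of both backgrounds. Trps1 fell by 0.37 on the log2 scale (SE 0.0727, adjusted p = 0.000128), Spp1 by 0.31 (SE 0.0662, adjusted p = 0.00031), Sp7 by 0.51 (SE 0.129, adjusted p = 0.00184) and Phex by 0.84 (SE 0.227, adjusted p = 0.00371). Sox5 (-0.40, SE 0.139, adjusted p = 0.0232) and Runx2 (-0.16, SE 0.0561, adjusted p = 0.0272) fell as well, although the fit within runs gave -0.25 for Sox5 (adjusted p = 0.333). Mgp rose by 0.28 (SE 0.0928, adjusted p = 0.0177) and Sparc by 0.081 (SE 0.0293, adjusted p = 0.0314). Sox9 (-0.15, adjusted p = 0.157) and Acan (-0.34, adjusted p = 0.164) did not pass.

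**Figure D4:**
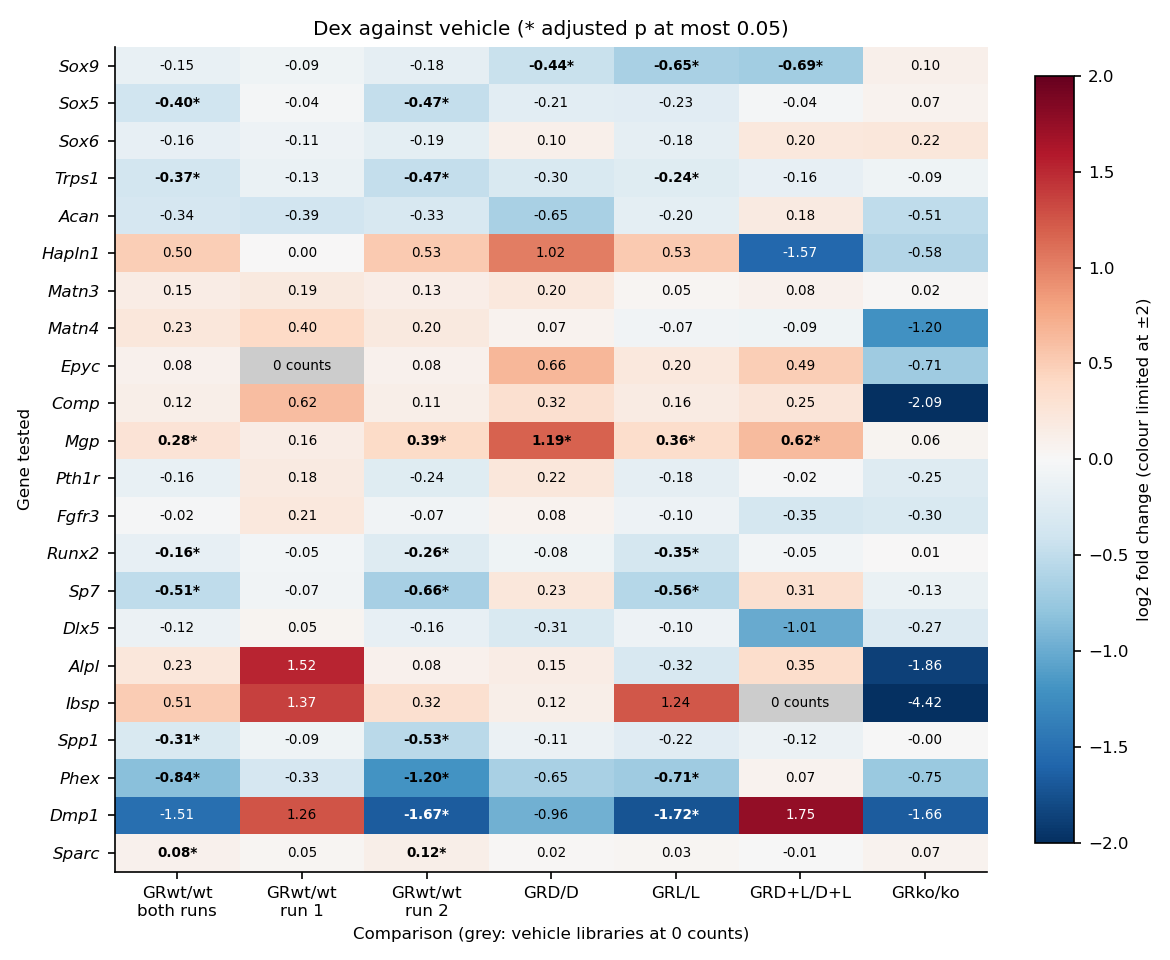
Heat map of log2 fold changes of Dex against vehicle for the 22 tested genes (rows) in GRwt/wt of both runs, of run 1 and of run 2, and in GRD/D, GRL/L, GRD+L/D+L and GRko/ko (columns); red is higher with Dex, blue is lower, colour stops at 2, an asterisk marks adjusted p of at most 0.05 and grey marks vehicle libraries at 0 counts. The GRwt/wt run 1 and GRko/ko columns hold no asterisk, and Mgp is red with an asterisk in GRD/D, GRL/L and GRD+L/D+L, at 1.19, 0.36 and 0.62.

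The GRwt/wt response was then taken for each run alone. In run 1 alone none of the 22 genes passed by edgeR, and none had an unadjusted p under 0.05 (smallest adjusted p 0.424), against 7.74% of all genes higher and 6.20% lower. DESeq2 was not run on run 1 alone. In run 2 alone 2 genes rose (background 14.9%) and 7 fell (16.7%), 2 of the 9 by 2-fold or more. Spp1 was at 1886, 1752 and 1735 CPM with vehicle and 1553, 1623 and 1882 CPM with Dex in run 1, where the groups overlapped. In run 2 it was at 1090, 1157 and 1387 CPM with vehicle and 932, 769 and 808 CPM with Dex, a log2 change of -0.53 (SE 0.0761, adjusted p = 5.57e-07) without overlap. By the test of the difference between the runs, Spp1 was the 1 of the 22 genes whose response differed, by -0.45 (SE 0.107, adjusted p = 0.0056), against 7.09% of all genes.

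The other genes that passed in run 2 had the direction of the pooled response. Trps1 went from 30.6, 28.2 and 28.9 CPM to 17.3, 23.3 and 22.5 CPM (log2 change -0.47, adjusted p = 1.17e-05) and Sp7 from 13.2, 13.7 and 16.6 CPM to 10.7, 7.98 and 8.91 CPM (-0.66, SE 0.137, adjusted p = 0.000236). Phex went from 0.882, 1.02 and 0.854 CPM to 0.356, 0.532 and 0.301 CPM (-1.20, SE 0.288, adjusted p = 0.00123), and Dmp1 from 1.34, 1.28 and 1.08 CPM to 0.436, 0.418 and 0.301 CPM (-1.67, SE 0.628, adjusted p = 0.0397). In these 4 genes each Dex library was below each vehicle library. Mgp went from 496, 476 and 422 CPM to 685, 582 and 554 CPM (0.39, SE 0.122, adjusted p = 0.0133). Runx2 (-0.26, adjusted p = 0.00591), Sox5 (-0.47, adjusted p = 0.0127) and Sparc (0.12, adjusted p = 0.0218) passed too, and Hapln1, at 4.23, 5.14 and 4.05 CPM with vehicle and 5.82, 6.16 and 7.41 CPM with Dex, did not (0.53, adjusted p = 0.0514).

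Over both runs, the changes of Trps1, Spp1, Sp7 and Phex passed without any 1 library. Mgp did not pass without GRwt/wt Dex replicate 4 or vehicle replicate 6 (adjusted p up to 0.0726), Runx2 without Dex replicate 4 or vehicle replicate 4 or 6 (up to 0.091), Sox5 without Dex or vehicle replicate 4 or 5 (up to 0.123) and Sparc without Dex replicate 4 or 5 or vehicle replicate 4, 5 or 6 (up to 0.082). All of these are run 2 libraries. Dmp1 passed without Dex replicate 2 (0.045), and Hapln1 without Dex replicate 3 or vehicle replicate 1 (as low as 0.0329).

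**Figure D5:**
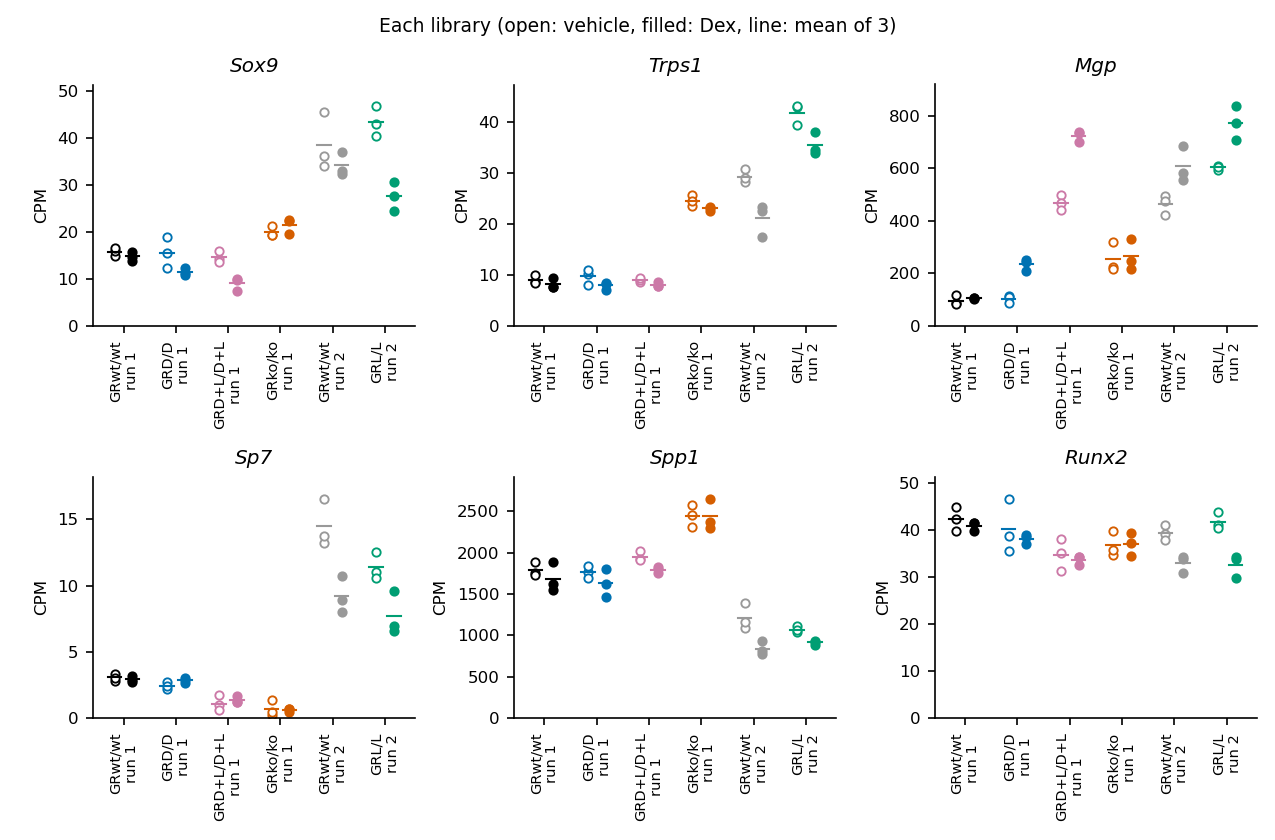
Level of Sox9, Trps1, Mgp, Sp7, Spp1 and Runx2 in every library, in TMM-scaled CPM on axes that start at 0, by genotype and run, with open points for vehicle, filled points for Dex and a line for the mean of 3. Sox9 is lower with Dex in GRL/L (24.4 to 30.7 CPM against 40.4 to 46.7 CPM) and in GRD+L/D+L (7.34 to 10 CPM against 13.6 to 15.9 CPM), and the GRko/ko points of Sox9 overlap.

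In GRD/D, 1 of the 22 genes rose with Dex (background 4.79%) and 1 fell (5.34%). Mgp went from 114, 110 and 85.5 CPM to 209, 251 and 242 CPM, a log2 change of 1.19 (SE 0.134, adjusted p = 4.55e-08), with no overlap. Sox9 went from 15.5, 12.2 and 18.9 CPM to 12.2, 11.2 and 10.8 CPM (-0.44, SE 0.134, adjusted p = 0.028), where vehicle replicate 2 and Dex replicate 1 were equal to the digits given. The Sox9 change did not pass without GRD/D Dex replicate 2 or 3 or vehicle replicate 1 or 3 (adjusted p up to 0.239), and Trps1 passed without vehicle replicate 1 (0.0405). Of the 22 genes, 1 differed in its response from GRwt/wt, Mgp, against 7.13% of all genes, with a response larger by 0.91 (SE 0.162, 95% interval 0.589 to 1.23, adjusted p = 0.000199).

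In GRD+L/D+L, 1 gene rose (background 2.56%) and 1 fell (1.45%), again Mgp and Sox9. Mgp went from 500, 466 and 441 CPM to 733, 738 and 700 CPM (log2 change 0.62, SE 0.127, adjusted p = 0.00128). Sox9 went from 14.2, 13.6 and 15.9 CPM to 9.74, 7.34 and 10 CPM (-0.69, SE 0.142, adjusted p = 0.00147). Neither pair of groups overlapped, and leaving out any 1 library changed neither call. The Sox9 response was 0.55 lower on the log2 scale than that of GRwt/wt (SE 0.162, adjusted p = 0.0305), the 1 of the 22 genes to differ, against 7.92% of all genes. It did not pass within run 1 alone (-0.60, adjusted p = 0.103), nor without GRD+L/D+L Dex replicate 2 or vehicle replicate 1 or 3 or GRwt/wt Dex replicate 5 or vehicle replicate 4 or 5 (adjusted p up to 0.163). The Mgp response did not differ from that of GRwt/wt by the test (0.345, adjusted p = 0.206).

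In GRL/L, 1 gene rose (background 8.12%) and 6 fell (9.57%), and the median log2 fold change was -0.184 over the 22 and -0.00912 over all genes. Sox9 went from 46.7, 42.9 and 40.4 CPM to 27.7, 24.4 and 30.7 CPM, a log2 change of -0.65 (SE 0.0989, adjusted p = 5.01e-06). Runx2 went from 43.8, 40.9 and 40.3 CPM to 34.2, 29.7 and 33.7 CPM (-0.355, SE 0.0765, adjusted p = 0.000705) and Sp7 from 11.1, 10.6 and 12.5 CPM to 9.61, 6.94 and 6.54 CPM (-0.56, SE 0.153, adjusted p = 0.00699). In these 3 factors each Dex library was below each vehicle library. Phex fell by 0.71 (SE 0.228, adjusted p = 0.0254), Dmp1 by 1.72 (SE 0.558, adjusted p = 0.0274), from 1.62, 1.99 and 1.68 CPM to 0.521, 0.383 and 0.671 CPM, and Trps1 by 0.24 (SE 0.0822, adjusted p = 0.0411). Mgp rose from 593, 611 and 606 CPM to 708, 836 and 774 CPM (0.36, SE 0.125, adjusted p = 0.0438).

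The GRL/L responses of Sox9 and Runx2 passed without any 1 library, and the 5 others did not. Dmp1 was lost without GRL/L Dex replicate 1 or 2 or vehicle replicate 2 (adjusted p up to 0.104), Mgp without Dex replicate 2 or 3 or any vehicle replicate (up to 0.187), Phex without any Dex replicate or vehicle replicate 1 (up to 0.153), Sp7 without Dex or vehicle replicate 3 (up to 0.0714) and Trps1 without Dex or vehicle replicate 2 or 3 (up to 0.165). By DESeq2, Mgp (adjusted p = 0.0715), Trps1 (0.0646) and Phex (0.0591) did not pass, Dmp1 was given no adjusted p, and Sox9, Runx2 and Sp7 passed. Sox9 was the 1 of the 22 genes whose response differed from GRwt/wt, by -0.50 (SE 0.126, adjusted p = 0.0474), against 0.742% of all genes. That difference was lost within run 2 alone (-0.47, adjusted p = 0.0669) and in 13 of 18 fits without 1 library, those without GRwt/wt Dex replicate 1, 2, 3 or 5, GRwt/wt vehicle replicate 1, 2, 3, 4 or 5, or GRL/L Dex or vehicle replicate 1 or 2 (adjusted p up to 0.226). The responses of the mutants are compared with the same GRwt/wt libraries, and Sox9 in GRD/D did not differ from them by the test (-0.30, adjusted p = 0.309).

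In GRko/ko, edgeR called none of the 22 genes, and 0% of all genes higher and 0% lower. An unadjusted p under 0.05 was found for 7 of the 22 and 787 of the 15489 genes, and DESeq2 called 0 of the 22. The lowest adjusted p was that of Ibsp, 0.371, with vehicle libraries at 0.294, 0.85 and 27.6 CPM and Dex libraries at 0.29, 0.789 and 0.239 CPM (log2 fold change -4.415). Comp was at 1.29, 1.25 and 15.9 CPM with vehicle and 1.45, 1.64 and 1.08 CPM with Dex (-2.09, adjusted p = 0.573), and Alpl at 0.647, 0.68 and 4.74 CPM and 0.348, 0.85 and 0.419 CPM (-1.865, adjusted p = 0.616). Without vehicle replicate 3 these values were -0.39, 0.13 and -0.30, the lowest adjusted p was 0.706 and 3 of the 22 had an unadjusted p under 0.05. The Dex library with the same number, replicate 3, did not share the high levels of the vehicle library. Comp (adjusted p down to 0.0149) and Ibsp (down to 0.00121) passed without vehicle replicate 1 or 2, which leaves replicate 3 a larger weight.

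The GRko/ko response differed from that of GRwt/wt for 3 of the 22 genes, against 14.9% of all genes, and all 3 rested on vehicle replicate 3. The difference was -2.22 for Comp (SE 0.629, adjusted p = 0.0129), -2.10 for Alpl (SE 0.630, adjusted p = 0.0195) and -1.44 for Matn4 (SE 0.492, adjusted p = 0.0431). Without that library it was 0.0089 for Comp (adjusted p = 0.994), -0.53 for Alpl (adjusted p = 0.565) and 0.12 for Matn4 (adjusted p = 0.857). Within run 1 alone none of the 3 passed, at -2.71 for Comp (adjusted p = 0.468), -3.39 for Alpl (0.0714) and -1.61 for Matn4 (0.2). Alpl was lost as well without GRko/ko Dex replicate 1 or 3, and Matn4 in 11 of 18 fits without 1 library, those without GRko/ko Dex replicate 1 or 2 or vehicle replicate 3, GRwt/wt Dex replicate 2, 3, 4 or 5 or GRwt/wt vehicle replicate 1, 2, 4 or 6. Without GRko/ko vehicle replicate 3, Dmp1 (2.30, adjusted p = 0.000834) and Sox6 (0.64, adjusted p = 0.0484) differed from GRwt/wt, 2 of the 22 against 12.2% of all genes. In GRwt/wt of run 1, the run of GRko/ko, Dmp1 had 1 count with vehicle and 3 with Dex, too few to show a response. The GRwt/wt response of Dmp1 thus came from run 2, with 102 counts and 30. Further genes passed without 1 other library: Hapln1 without GRko/ko vehicle replicate 2 (0.0254), Ibsp without GRko/ko vehicle replicate 1 or 2 (down to 0.00903) and Spp1 without GRwt/wt Dex replicate 3 or vehicle replicate 2 or 3 (down to 0.0122).

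A wider list of 80 genes of skeletal development, 76 of them tested, gave the setting of these values. It held hedgehog, BMP and FGF signals, further transcription factors, enzymes of proteoglycan synthesis, other matrix genes and genes of mineral and bone turnover. In vehicle, 48 of the 76 were higher and 21 lower in run 2 than in run 1 of GRwt/wt (all genes 40.2% and 32.2%), led by Bmp4 (log2 difference 3.44), Fgfr2 (1.69) and Zfp521 (1.90). In GRL/L 23 were higher and 3 lower (all genes 7.56% and 4.99%). In GRko/ko 33 were higher and 22 lower (25.8% and 22.6%), or 26 and 17 without vehicle replicate 3 (22.3% and 20.1%). In GRD/D 9 were higher and 10 lower (7.27% and 5.37%), and in GRD+L/D+L 21 were higher and 28 lower (15.4% and 18%). Foxc1, a forkhead factor of mesenchyme, was among the leading genes in 3 mutants, at 0.60 in GRL/L, 1.47 in GRD+L/D+L and 1.51 in GRko/ko, and Tnn, a tenascin of bone, was among them at -1.19 in GRD/D, -3.59 in GRD+L/D+L and -4.07 in GRko/ko. These comparisons share the GRwt/wt libraries.

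With Dex, 20 of the 76 genes of the wider list rose in GRwt/wt and 23 fell (all genes 16.2% and 17.4%). Ank, a transporter that exports pyrophosphate and so restrains mineral, fell (log2 change -0.97, adjusted p = 5.3e-17), and Slc20a1, a phosphate transporter (-0.56), and Tnfsf11, the osteoclast ligand RANKL (-1.21), fell too. In GRD/D 4 rose and 14 fell (4.79% and 5.34%), in GRL/L 10 and 18 (8.12% and 9.57%), and in GRD+L/D+L 3 and 7 (2.56% and 1.45%). Vdr, the vitamin D receptor, was among the leading genes in GRD/D (0.97) and GRD+L/D+L (0.94), and Ank in GRL/L (-0.77) and GRD+L/D+L (-0.55).

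Over the 36 libraries, the genes whose log2 CPM was most like that of Acan among all genes tested were Abca1 (Pearson's r 0.956), Lipa (0.947) and Anpep (0.941). Of the 31 genes, Pth1r came closest (0.894, rank 54), followed by Trps1 (0.867, rank 136), Matn3 (0.814) and Alpl (0.808). At the other end were Runx2 (0.0368) and Spp1 (-0.331). These values describe libraries that share run, genotype and depth.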

How the data were processed

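RNA was measured in 36 libraries of MEFs. The authors aligned reads to mm10 with HISAT2 2.1.0 and deposited raw counts per gene from featureCounts 2.0.0, per the submitters' processing notes, using uniquely mapped reads. The annotation and strand setting are not given in the sources used here, so genes that overlap on opposite strands cannot be told apart. From these counts edgeR 4.0.16 (R 4.3.3, limma 3.58.1) was run with filterByExpr and TMM, with a mean for each of the 10 genotype and treatment groups plus a run term, after the study's formula. A fit with 12 groups gave the comparisons between runs and within runs. Residual degrees of freedom were 25 in the fit with the run term, and the common biological coefficient of variation was 0.0565. Tested genes held 99.93% of counts. SEs were derived from the F statistic. The alternatives were DESeq2 1.42.0, its size factors, other filters, a 2-fold limit, fits within runs, a replicate block and leaving out each library. The fitting was tested on simulated data. Names were matched for 55141 genes.

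The genes and lists were chosen with earlier results of these data known. Values are given per library for genes passing at 2-fold or more in any comparison and for Sox9, Acan, Runx2, Alpl and Sparc, and for others as a range or count. Of the wider list, at most 3 genes per comparison with the lowest adjusted p were named. Giving GRwt/wt by run, and the GRko/ko genes one by one without vehicle replicate 3, was added after the data were seen.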

Additional observations from a re-analysis of the deposited data

Results flagged for a closer look

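In 7 cases the Dex response differed between groups by a test of the difference itself, among the 22 tested genes. The values are log2 differences of the response from that of GRwt/wt, adjusted over all genes tested in edgeR's quasi-likelihood test. Mgp differed by 0.907 in GRD/D, where each Dex library was above each vehicle library. Sox9 differed by -0.501 in GRL/L and by -0.545 in GRD+L/D+L, in both of which each Dex library was below each vehicle library. Neither difference passed within runs (adjusted p = 0.0669 in GRL/L and 0.103 in GRD+L/D+L). Leaving out 1 library lost the GRL/L difference in 13 of 18 fits and the GRD+L/D+L difference in 6 of 18. Comp (-2.22), Alpl (-2.1) and Matn4 (-1.44) differed in GRko/ko, each through 1 vehicle library, replicate 3. Spp1 differed by -0.447 between run 2 and run 1 of GRwt/wt.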

How the results depend on the processing

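Values are counts of genes that passed, out of the 22 tested unless the setting changed which genes were tested. Replacing edgeR by DESeq2 lowered the GRL/L Dex response from 7 to 3, with Dmp1 given no adjusted p, and DESeq2 size factors the GRL/L difference in response from 1 to 0. With no filter on low counts, all 31 genes were tested, among 32584 genes. The GRko/ko Dex response then went from 0 to 8 and the GRD/D vehicle level from 2 to 5. The differences in response went from 1 to 3 in GRD/D, from 1 to 4 in GRD+L/D+L and from 3 to 10 in GRko/ko. The 9 genes added by this setting have low counts, and 5 of them had their highest level of all libraries in GRko/ko vehicle replicate 3. Shares of all genes are not given for this setting. Requiring at least 10 counts in every library left 11959 genes to test and fewer of the 22, so that fewer could pass. That setting gave 5 for the Dex response in GRwt/wt and 4 in GRL/L. Vehicle levels were 1 in GRD/D, 4 in GRL/L, 3 in GRD+L/D+L, 8 in GRko/ko and 9 between runs, and the GRko/ko difference was 1. A 2-fold limit left Dex responses of 0 in GRwt/wt, 1 in GRD/D, 1 in GRL/L and 0 in GRD+L/D+L, vehicle levels of 1 in GRD/D, 2 in GRL/L and 5 in GRD+L/D+L, and differences in response of 0 in GRD/D, GRL/L, GRD+L/D+L and between runs. Within runs the GRD/D vehicle level and the GRL/L, GRD+L/D+L and GRko/ko differences were at 0. GRwt/wt of run 1 alone gave 0 for the Dex response, and run 2 alone 9. Except where a value or a smaller set of genes or libraries shows it, the cause was not tested.

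With a replicate block the GRL/L vehicle level fell to 4, without Sox6 (adjusted p = 0.0554), Comp (0.0559), Matn4 (0.0797), Sparc (0.122), Dlx5 (0.296) and Matn3 (0.685), and the GRL/L difference in response to 0, and the GRwt/wt Dex response rose from 8 to 9 but lost Sox5 (0.0525) and Sparc (0.0522). The numbers did not pair the libraries: over 18 pairs the correlation of deviations was -0.0787 to 0.116, and 7 pairs correlated best with their own number. No block could be fitted for the comparison of runs.

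Leaving out each library in turn gave 4 to 9 for the Dex response in GRwt/wt, 1 to 2 in GRD/D, 3 to 5 in GRL/L, 2 to 2 in GRD+L/D+L and 0 to 2 in GRko/ko. Vehicle levels ran from 0 to 2 in GRD/D, 7 to 10 in GRL/L, 6 to 9 in GRD+L/D+L, 17 to 20 in GRko/ko and 18 to 19 between runs. Differences in response ran from 1 to 1 in GRD/D, 0 to 1 in GRL/L, 0 to 1 in GRD+L/D+L, 1 to 5 in GRko/ko and 1 to 1 between runs. Without GRko/ko vehicle replicate 3 the difference in response reversed to 0.122 for Matn4 and 0.00892 for Comp, within ranges of -1.9 to 0.122 and -2.72 to 0.00892. For single genes, 441 of 522 other comparisons kept their call and direction and 81 no longer passed.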
